A study of Mus musculus with 6 samples.

Results

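Laminins, nidogens, perlecan and agrin are the main non-collagenous proteins of basement membranes. Of the 41799 rows of the gene table for mouse liver sinusoidal endothelial cells (SECs), 10 were taken by symbol: the nidogen genes Nid1 and Nid2, the heparan sulfate proteoglycan genes Hspg2 (perlecan) and Agrn (agrin), and the laminin chain genes Lama2, Lama4, Lama5, Lamb1, Lamb2 and Lamc1. All 10 were found, each as 1 row, and all 10 passed the filter on low counts.

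A laminin is a trimer of an alpha, a beta and a gamma chain that polymerizes into a sheet on cell surfaces. Collagen IV forms a second sheet, and nidogens and perlecan bind both and tie them together, while agrin anchors laminin to cells. Healthy liver sinusoids have fenestrated endothelium without a continuous basement membrane, and the appearance of such a membrane with loss of fenestrae in fibrosis is known as capillarization.

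Libraries were made from SECs of fibrotic livers of male mice aged 12 to 14 weeks, 3 with a conditional deletion of endothelial RBPj (RBPj KO) and 3 controls. RBPj binds DNA and carries Notch signals to target genes. Per the labels, both groups had 1 protocol: tamoxifen, which induces the deletion, at 2 mg per 20 g of body weight daily for 7 days at the age of 4 to 6 weeks, 1 week of rest, and then 6 weeks of carbon tetrachloride (CCl4), given 2 times weekly at 0.6 μl per g as a 15% solution in olive oil. The strain field reads C57BL/6 for all 3 controls and RBPj KO replicate 1, C57BL/7 for RBPj KO replicate 2 and C57BL/8 for RBPj KO replicate 3. The sources used here do not name the Cre driver, the alleles of the controls or the isolation of the cells, nor say whether each library stands for 1 mouse, so p-values measure the spread between these libraries, which may be technical. All 6 livers were fibrotic, and no uninjured liver enters the comparison.

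Total counts were 10503026 to 12326770 in the RBPj KO libraries and 10372195 to 11268228 in the control libraries, so that 3 counts corresponded to between 0.243 and 0.289 CPM, the count put on 1 common library size. The 10 genes took 0.641% to 0.768% of all counts in RBPj KO SECs and 0.446% to 0.621% in control SECs. Markers of the labelled cell type were present, with 10 of 10 endothelial and 11 of 11 sinusoidal genes detected. Markers of other cell types were also present, and some libraries stood apart by them. Summed over 6 neutrophil markers, RBPj KO SECs had 3718, 627 and 512 normalized CPM and control SECs 16374, 261 and 321 normalized CPM. Summed over 17 markers of hepatic stellate cells and fibroblasts, RBPj KO SECs had 1881, 7887 and 5459.7 normalized CPM and control SECs 5642, 9777 and 15948 normalized CPM. RBPj KO replicate 1 was thus lowest and control replicate 3 highest for stellate cell and fibroblast markers, and control replicate 1 was highest for neutrophil markers. In bulk samples such as these, fewer cells of a type and less RNA per cell cannot be told apart.

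The targeted gene was examined first. Rbpj had 128, 99 and 154 counts in RBPj KO libraries and 174, 172 and 173 counts in control libraries. Each RBPj KO value thus lay below each control value, at 11.6, 8.10 and 11.9 normalized CPM in RBPj KO SECs against 18.6, 14.5 and 16.4 normalized CPM in control SECs. Its log2 fold change of -0.64 ± 0.19 (SE) did not pass the threshold (edgeR's quasi-likelihood test, adjusted p = 0.187). A count over the whole gene also holds transcripts that lack only the deleted exons, and its partial reduction does not measure the efficiency of the deletion.

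RBPj binds DNA at sites with the core TGGGAA, so the promoters of the 10 genes were searched for these letters on both strands. RefSeq promoter entries (GRCm38.p6, 250 bases before and 50 after a start site) matched 7 of the 10 genes, with 8 windows, and Nid2, Lama4 and Lamc1 had none. TGGGAA occurred in the windows of 4 of these 7 genes and in 25.6% of all 32851 windows. The longer form GTGGGAA, which contains the core, occurred in 1 of the 7 genes (Hspg2) and in 6.38% of all windows, and the GC box GGGCGG, which can share no base with the core and 1 end base with the longer form, in 6 of the 7 genes and in 35.7% of all windows. The 250 bases upstream of the start are printed for the 4 genes with the core, because these are the stretches in which the letters of the deleted factor's site were found, with TGGGAA in capitals, 5′ to 3′ on the gene's strand.
Hspg2 promoter (chr4:137468553-137468802, + strand, 70.0% G or C): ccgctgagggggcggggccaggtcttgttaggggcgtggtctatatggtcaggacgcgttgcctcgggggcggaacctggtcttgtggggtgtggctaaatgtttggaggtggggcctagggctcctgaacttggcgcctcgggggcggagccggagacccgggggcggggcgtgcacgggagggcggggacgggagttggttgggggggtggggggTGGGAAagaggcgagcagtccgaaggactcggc
Nid1 promoter (chr13:13437352-13437601, + strand, 64.4% G or C): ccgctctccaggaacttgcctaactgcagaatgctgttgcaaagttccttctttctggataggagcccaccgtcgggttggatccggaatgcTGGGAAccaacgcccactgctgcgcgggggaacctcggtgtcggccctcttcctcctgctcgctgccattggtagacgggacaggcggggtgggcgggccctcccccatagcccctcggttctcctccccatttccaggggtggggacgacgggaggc
Lamb1 promoter (chr12:31265043-31265292, + strand, 62.0% G or C): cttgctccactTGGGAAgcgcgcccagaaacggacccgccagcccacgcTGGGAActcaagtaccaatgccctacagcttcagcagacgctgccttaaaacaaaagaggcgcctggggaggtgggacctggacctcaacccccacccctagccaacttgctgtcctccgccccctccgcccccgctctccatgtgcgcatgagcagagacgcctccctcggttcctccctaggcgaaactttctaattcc
Lama2 promoter (chr10:27616943-27617192, - strand, 47.2% G or C): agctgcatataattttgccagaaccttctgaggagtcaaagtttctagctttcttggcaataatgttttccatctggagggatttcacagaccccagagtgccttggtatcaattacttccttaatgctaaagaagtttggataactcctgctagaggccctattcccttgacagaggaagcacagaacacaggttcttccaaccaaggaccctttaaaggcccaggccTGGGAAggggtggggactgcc
The core began 33 bases before the start of the promoter entry in Hspg2, 158 in Nid1, 239 and 201 in Lamb1, and 21 in Lama2. For Hspg2, Lamb1 and Lama2 that start lies inside the interval of the gene's own row, given with its levels below. The cores of Hspg2 and Lama2 also lie inside these intervals and not upstream of them. These are matches of letters and not measured binding sites. The 4 genes did not share a direction, since Hspg2 and Nid1 were higher in every RBPj KO library than in any control library, and Lamb1 and Lama2 had negative log2 fold changes with overlapping groups.

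The comparison of RBPj KO with control SECs asks how these basement membrane genes differ when endothelial RBPj is deleted in fibrotic liver. Nid2, Hspg2 and Nid1 were higher in all 3 RBPj KO libraries than in any control library, by 3.08-fold, 1.47-fold and 1.27-fold. All 6 laminin chains and agrin had negative log2 fold changes, between -0.19 and -1.09, and the groups overlapped for each of these 7 genes. None of the 10 genes passed the adjusted threshold by edgeR's quasi-likelihood test, which called 30 of 15404 tested genes (0.195%). By DESeq2, which called 5.72% of tested genes, and by limma-voom with quality weights, which called 3.17%, 1 of the 10 passed, and it was Nid2 in both.

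At an unadjusted edgeR p under 0.05, 3 of the 10 genes were higher, against 9.39% of all tested genes, and 0 were lower, against 8.13%. Likewise 3 of the 10 had non-overlapping groups with RBPj KO higher, against 13.2% of all tested genes, and 0 with RBPj KO lower, against 11.7%. The count of genes lower without overlap depended on the libraries. Without RBPj KO replicate 2, 5 of the 10 genes (Lama4, Lamb1, Lamb2, Lamc1 and Agrn) lay lower without overlap, against 15.6% of all tested genes, and the same 3 lay higher, against 15.7%. Without control replicate 1, 3 genes (Lamb1, Lamc1 and Agrn) lay lower, against 19.3% of all tested genes, and the same 3 lay higher, against 19.3%. The median log2 fold change was -0.27 over the 10 genes and -0.03 over all tested genes.

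**Figure D1:**
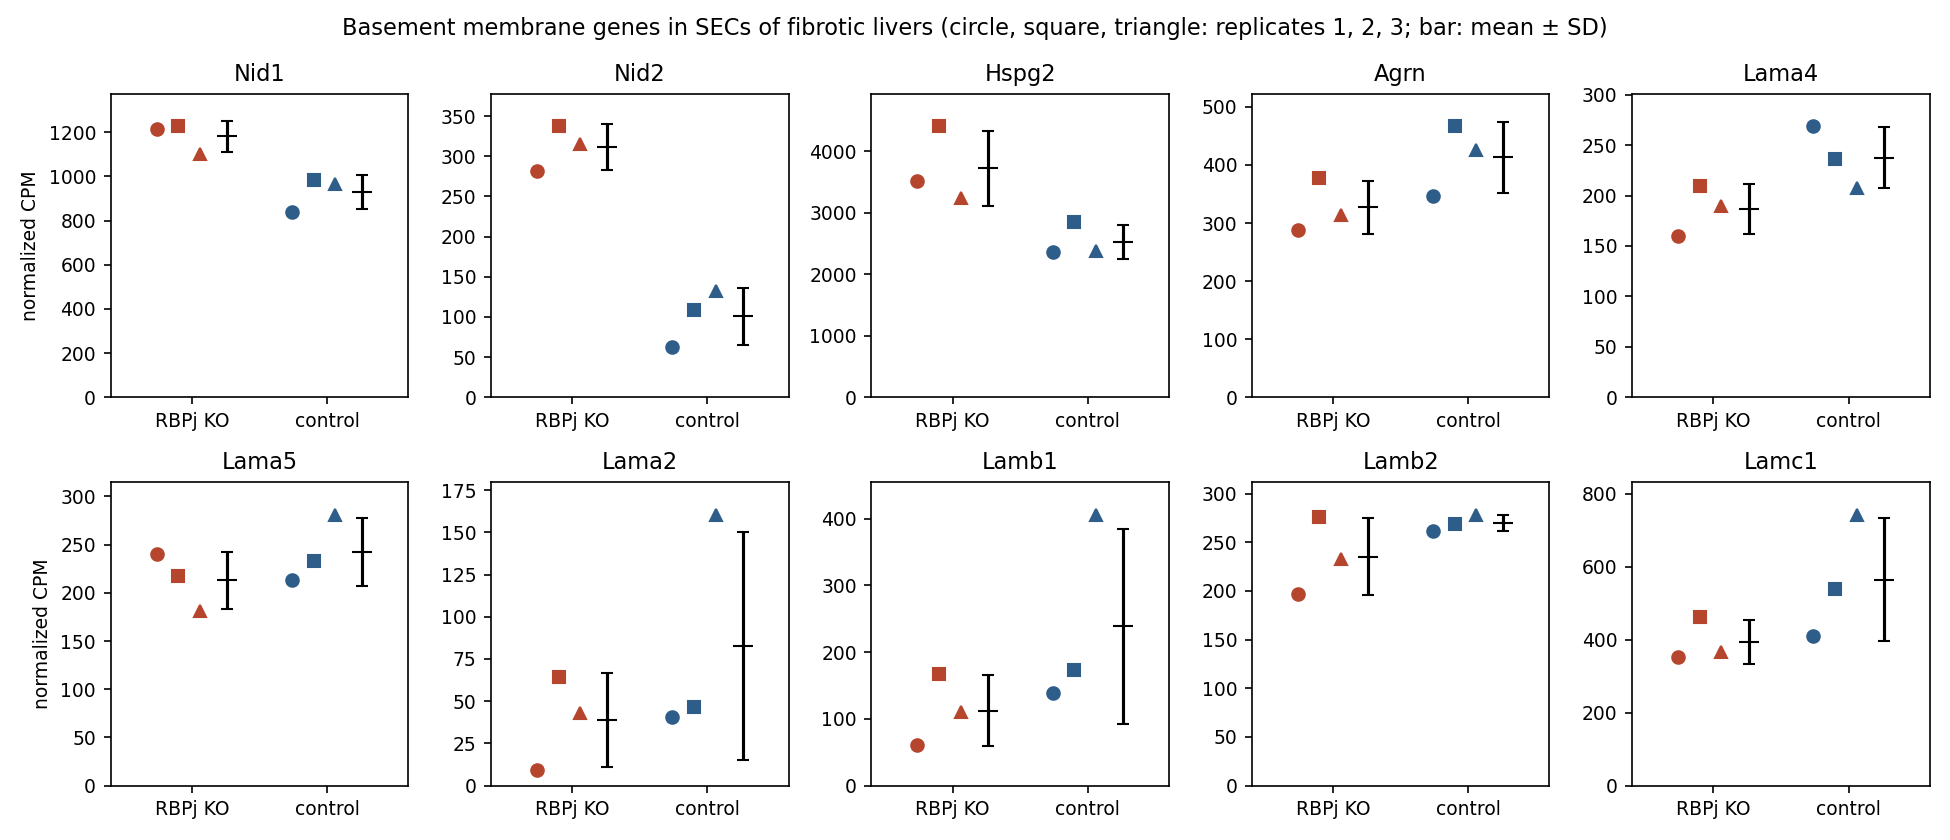
Normalized CPM (linear y axes from 0) of the 10 genes in each library of RBPj KO SECs (left in each panel, red) and control SECs (right, blue), with circles, squares and triangles for replicates 1, 2 and 3 and bars for mean ± SD (n = 3 each). Points of Nid1, Nid2 and Hspg2 do not overlap between groups, and control replicate 3 stands above the other libraries for Lama2 (161 normalized CPM), Lamb1 (406) and Lamc1 (743).

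Nid1 and Nid2 encode the nidogens, glycoproteins that link the laminin gamma 1 chain to collagen IV and perlecan. Nid2 lies at chr14:19751257-19811787 (mm10, + strand). Its counts were 3098, 4124 and 4066 in RBPj KO libraries and 585, 1280 and 1395 in control libraries, or 282, 338 and 315 normalized CPM in RBPj KO SECs against 62.4, 108 and 132 normalized CPM in control SECs. The lowest RBPj KO library was thus above 2 times the highest control library. The log2 ratio of the groups was 1.63 ± 0.28 (SE, n = 3 each), and 0.740% of tested genes had a larger positive value. By p, Nid2 ranked 183rd of 15404 genes. It did not pass the threshold by edgeR's quasi-likelihood test (adjusted p = 0.0825) and passed by DESeq2 (adjusted p = 8.92e-06) and limma-voom (adjusted p = 0.0234). Leaving out each library in turn gave log2 fold changes of 1.37 (without control replicate 1) to 1.87 (without control replicate 3), with an unadjusted edgeR p under 0.05 in 6 of 6 fits.

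The 3′ end of Nid2 shares 386 of its 4884 counted bases with 2700060E02Rik on the other strand, and the sources used here do not say whether reads were counted by strand. The whole signal of 2700060E02Rik was 46.6, 52.5 and 56.9 normalized CPM in RBPj KO SECs and 32.3, 34.1 and 40.7 normalized CPM in control SECs. Its log2 fold change was 0.54 ± 0.13 (SE, edgeR's quasi-likelihood test, adjusted p = 0.139). The part of its reads in the counts of Nid2 was not tested.

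Nid1 (chr13:13437602-13512275, + strand) was the more abundant nidogen gene. It had 1217, 1229 and 1102 normalized CPM in RBPj KO SECs and 841, 984 and 967 normalized CPM in control SECs. The groups did not overlap, and the fold difference was smaller than that of Nid2. A log2 fold change of 0.35 ± 0.13 (SE) did not pass the threshold (edgeR's quasi-likelihood test, adjusted p = 0.251). It ran from 0.28 to 0.41 with each library left out in turn, with an unadjusted p under 0.05 in 1 of these 6 fits.

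Levels of different genes were compared per transcript length, in RPKM (reads scaled by gene length and library total), within a library, which removes the library's scaling. The ratio of Nid2 to Nid1 RPKM was 0.286, 0.340 and 0.354 in RBPj KO SECs against 0.0918, 0.136 and 0.169 in control SECs. Nid2 thus contributed more of the nidogen transcripts in every RBPj KO library than in any control library, and the mean ratio was 0.327 ± 0.0356 in RBPj KO SECs and 0.132 ± 0.0389 in control SECs (SD, n = 3 each). The smallest exact two-sided permutation p that 3 libraries against 3 can give is 0.1, so no p is given for ratios.

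Perlecan and agrin are heparan sulfate proteoglycans with laminin-like domains. Hspg2, which encodes the perlecan core protein (chr4:137468764-137570630, + strand), had the highest RPKM of the 10 genes. It had 3523, 4414 and 3237 normalized CPM in RBPj KO SECs and 2357, 2850.2 and 2379 normalized CPM in control SECs. The groups did not overlap, with RBPj KO replicate 2 the highest library. The difference, 0.56 ± 0.18 (SE) on the log2 scale, did not pass the threshold (edgeR's quasi-likelihood test, adjusted p = 0.212). With each library left out in turn it ran from 0.42 to 0.67, with an unadjusted p under 0.05 in 3 of these 6 fits.

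Agrn (chr4:156165290-156197519, - strand) did not follow Hspg2. It had 288, 378 and 314 normalized CPM in RBPj KO SECs and 346, 467 and 426 normalized CPM in control SECs. Only RBPj KO replicate 2 reached into the control range, and the log2 fold change was -0.34 ± 0.17 (SE, edgeR's quasi-likelihood test, adjusted p = 0.348). The ratio of Hspg2 to Agrn RPKM was 7.54, 7.20 and 6.36 in RBPj KO SECs against 4.19, 3.76 and 3.45 in control SECs. Perlecan therefore stood further above agrin in every RBPj KO library than in any control library, by a mean ratio of 7.03 ± 0.609 in RBPj KO SECs and 3.80 ± 0.375 in control SECs (SD, n = 3 each).

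**Figure D2:**
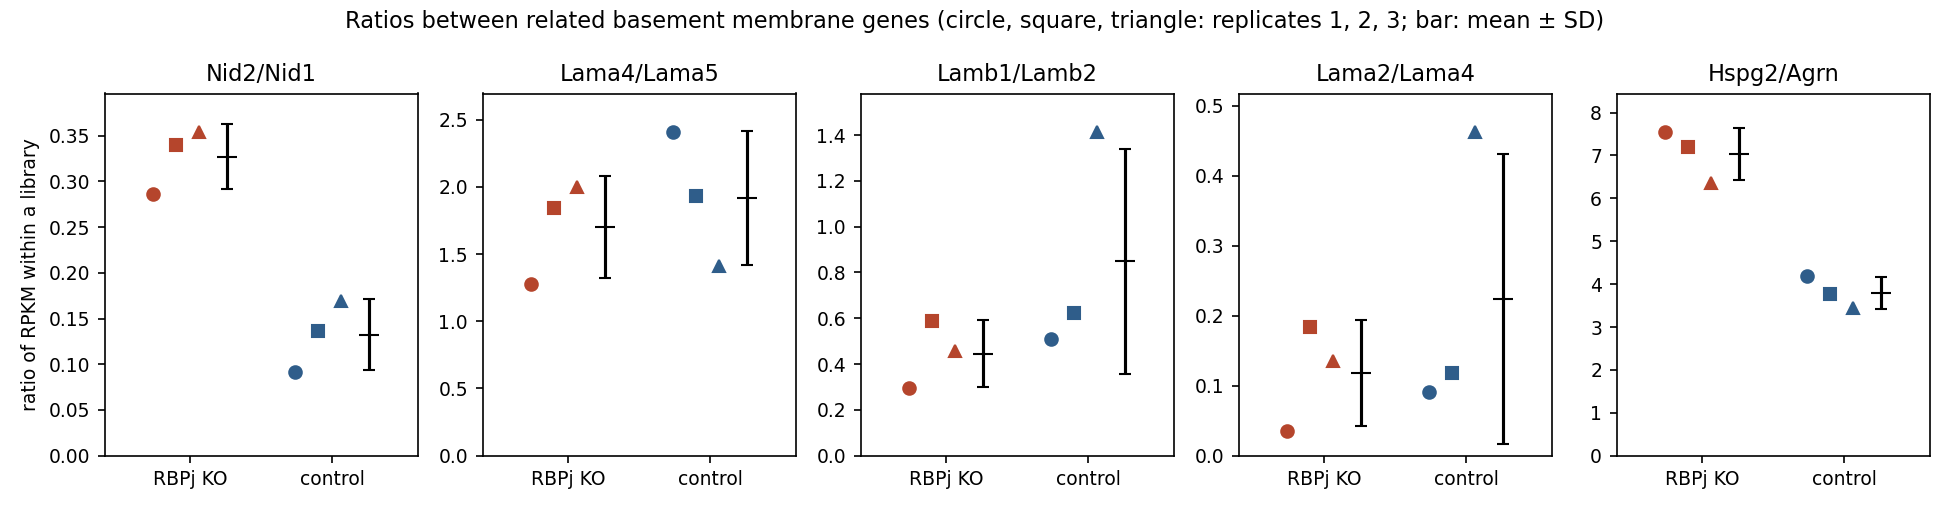
Ratios of RPKM between 2 genes of the same library (linear y axes from 0) in RBPj KO SECs (left in each panel, red) and control SECs (right, blue), with circles, squares and triangles for replicates 1, 2 and 3 and bars for mean ± SD (n = 3 each). The groups do not overlap for Nid2/Nid1 and Hspg2/Agrn and overlap for the 3 laminin ratios, and control replicate 3 is the highest library for Lamb1/Lamb2 (1.41) and Lama2/Lama4 (0.462).

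Markers of endothelium mostly had log2 fold changes of the same sign as the nidogens and perlecan. They were positive for 9 of 10 genes with a median of 0.45. For 5 of 10, RBPj KO SECs lay higher without overlap, against 13.2% of all tested genes. Their summed level was 10921 to 13053 normalized CPM in RBPj KO SECs and 8436 to 10382 normalized CPM in control SECs. None of the 10 markers passed the threshold by edgeR's quasi-likelihood test, and 4 had an unadjusted p under 0.05, against 9.39% of all tested genes that were higher. By DESeq2 3 passed, against 5.72% of all tested genes, and by limma-voom 1, against 3.17%. The 11 markers of sinusoidal endothelium were divided, with 6 positive and 5 negative, a median of 0.14, and overlapping sums of 17394 to 22736 normalized CPM in RBPj KO SECs and 12684 to 18278 normalized CPM in control SECs. Of these 11, 3 lay higher without overlap, against 13.2% of all tested genes, and 1 lower, against 11.7%. By edgeR's quasi-likelihood test 0 passed, by DESeq2 2, against 5.72% of all tested genes, and by limma-voom 0, against 3.17%. Of 6 mesothelial markers 5 were positive, with a median of 0.64, and 3 lay higher without overlap, against 13.2% of all tested genes. Their sums were 97.4 to 169 normalized CPM in RBPj KO SECs and 94.2 to 98.4 normalized CPM in control SECs. Nid1, Nid2 and Hspg2 all had their lowest values in control replicate 1, the library highest for neutrophil markers. They stood there at -0.32, -1.47 and -0.37 log2 units from the mean of the 6 libraries. For Hspg2, control replicate 3 was close, at -0.36. The part of endothelial, sinusoidal, mesothelial and neutrophil markers in the values of Nid1, Nid2 and Hspg2 was not tested.

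Laminin alpha chains carry most of the sites by which laminins bind cell receptors. Lama4 and Lama5 encode the alpha 4 and alpha 5 chains, typical of endothelial basement membranes. Lama4 (chr10:38965515-39110188, + strand) had 160.2, 209.6 and 189.7 normalized CPM in RBPj KO SECs and 269, 236 and 208 normalized CPM in control SECs. Only RBPj KO replicate 2 reached above the lowest control library, and the log2 fold change was -0.35 ± 0.15 (SE, edgeR's quasi-likelihood test, adjusted p = 0.301).

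Lama5 (chr2:180176373-180225905, - strand) showed broadly overlapping groups. It had 239.9, 217 and 182 normalized CPM in RBPj KO SECs and 213, 233 and 281 normalized CPM in control SECs. RBPj KO replicate 1 was the second highest library, and the log2 fold change was -0.19 ± 0.16 (SE, edgeR's quasi-likelihood test, adjusted p = 0.571). The ratio of Lama4 to Lama5 RPKM was 1.27, 1.84 and 2.00 in RBPj KO SECs against 2.41, 1.93 and 1.41 in control SECs, so the groups overlapped widely.

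Lama2 encodes the alpha 2 chain, best known from the basement membranes of muscle and Schwann cells. Lama2 (chr10:26981285-27617051, - strand) had 9.45, 64.3 and 42.8 normalized CPM in RBPj KO SECs and 40.8, 46.6 and 161 normalized CPM in control SECs. It was the most variable of the 10 genes within a group, by 6.80-fold among RBPj KO libraries and 3.93-fold among control libraries. The log2 fold change of -1.09 ± 0.82 (SE, edgeR's quasi-likelihood test, adjusted p = 0.533) rested on RBPj KO replicate 1 and control replicate 3. With 1 library left out it ran from -1.66 (without RBPj KO replicate 2) to -0.17 (without control replicate 3), and it was 0.29 (adjusted p = 0.522), with the opposite sign, without both, an alternative chosen after the data were seen.

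Lamb1 and Lamb2 encode the beta 1 and beta 2 chains, which are alternatives in the trimer. Lamb1 (chr12:31265148-31329644, + strand) had 60.2, 167 and 109.9 normalized CPM in RBPj KO SECs and 138, 173 and 406 normalized CPM in control SECs. As for Lama2, RBPj KO replicate 1 was the lowest library and control replicate 3 the highest. The log2 fold change was -1.09 ± 0.54 (SE, edgeR's quasi-likelihood test, adjusted p = 0.355), and it was -0.47 without control replicate 3 and -0.17 without both these libraries.

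Lamb2 (chr9:108479857-108490530, + strand) had 197, 276 and 233 normalized CPM in RBPj KO SECs and 262, 269 and 279 normalized CPM in control SECs. Its control libraries were the closest together of the 10 genes, with 1.06-fold between the highest and the lowest, and RBPj KO replicate 2 lay among them. For Lamb2 the log2 fold change was -0.20 ± 0.14 (SE, edgeR's quasi-likelihood test, adjusted p = 0.513). The ratio of Lamb1 to Lamb2 RPKM was 0.295, 0.586 and 0.457 in RBPj KO SECs against 0.511, 0.621 and 1.41 in control SECs. In every library but control replicate 3, Lamb2 was the more abundant beta chain gene.

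Lamc1 encodes the gamma 1 chain, the partner of most laminins and the one that nidogens bind. Lamc1 (chr1:153218922-153332786, - strand) had 352, 461 and 367 normalized CPM in RBPj KO SECs and 409, 539 and 743 normalized CPM in control SECs. RBPj KO replicate 2 alone reached above a control library, and the log2 fold change was -0.52 ± 0.24 (SE, edgeR's quasi-likelihood test, adjusted p = 0.327). It was -0.27 without control replicate 3, so that this library carried much of the difference.

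Of the laminin chain genes outside the 10, Lama1 and Lama3 had the smallest p. Lama1 encodes the alpha 1 chain of embryonic and epithelial laminins. It had 8.91, 64.0 and 34.8 normalized CPM in RBPj KO SECs and 92.0, 117 and 223 normalized CPM in control SECs. The groups did not overlap, and the fitted level was 4.01-fold lower in RBPj KO SECs (SE of the log2 fold change 0.73, edgeR's quasi-likelihood test, adjusted p = 0.247). Its log2 fold change ran from -2.71 (without RBPj KO replicate 2) to -1.53 (without RBPj KO replicate 1) with 1 library left out. Lama1 passed by DESeq2 and not by limma-voom. Lama3 had a log2 fold change of 0.35 ± 0.17 (SE, edgeR's quasi-likelihood test, adjusted p = 0.354), and its groups overlapped.

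Per transcript length, the alpha chain genes of a library summed to 60.7 ± 7.56 RPKM in RBPj KO SECs and 82.4 ± 11.9 RPKM in control SECs (SD, n = 3 each). The beta chain genes summed to 63.4 ± 14.4 RPKM in RBPj KO SECs and 86.8 ± 25.4 RPKM in control SECs. The gamma chain genes summed to 58.5 ± 5.08 RPKM in RBPj KO SECs and 78.0 ± 22.9 RPKM in control SECs. The sums of the alpha chain genes did not overlap between the groups, at 53.3, 68.4 and 60.4 RPKM in RBPj KO SECs against 70.8, 81.8 and 94.6 RPKM in control SECs. Those of the beta and gamma chain genes did. Lama4 held the largest share of the alpha chain RPKM in every library, with 52.3% ± 2.19 in RBPj KO SECs and 47.2% ± 11.4 in control SECs.

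Lama5 came second in every library, with 40.9%, 27.3% and 27.4% of the alpha chain RPKM in RBPj KO SECs against 23.6%, 26.0% and 24.5% in control SECs. Its share was higher in every RBPj KO library than in any control library, while its level was not. The share of Lama1 was lower without overlap, at 1.81%, 9.61% and 6.27% in RBPj KO SECs against 12.2%, 15.6% and 23.2% in control SECs, and that of Lama3 was higher without overlap, at a mean of 3.77% in RBPj KO SECs and 2.08% in control SECs. Shares of 1 sum are not independent, since a lower share of Lama1 raises the others.

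**Figure D3:**
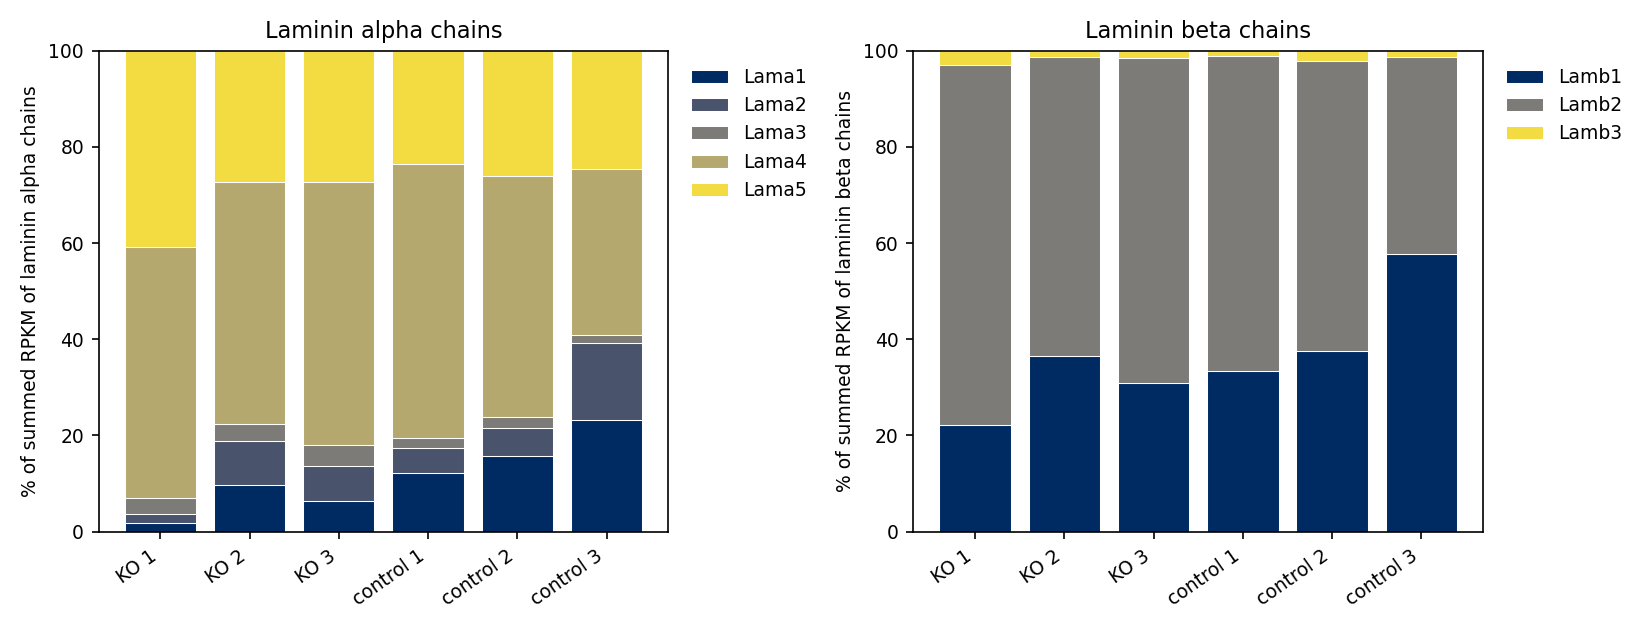
Share of each laminin alpha chain gene (left panel) and beta chain gene (right panel) in the summed RPKM of its class, in % (y axes from 0 to 100), with 1 stacked bar per library and the RBPj KO libraries left of the control libraries. Lama4 takes the largest part of every alpha bar, and control replicate 3 has the largest parts of Lama1 (23.2%), Lama2 (16.0%) and Lamb1 (57.8%).

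By mean RPKM, the 10 genes in RBPj KO SECs ran in the order Hspg2 (268), Nid1 (201), Nid2 (65.6), Lamc1 (53.0), Lamb2 (42.6), Agrn (38.2), Lama4 (31.7), Lamb1 (19.6), Lama5 (19.0) and Lama2 (3.91). The libraries of the neighbours Lamb2 and Agrn, of Lama4 and Lamb1 and of Lamb1 and Lama5 overlapped, and those of the other neighbours did not, narrowly so for Nid2 and Lamc1, Lamc1 and Lamb2, and Agrn and Lama4. In control SECs the order was Hspg2 (173), Nid1 (149.6), Lamc1 (71.8), Lamb2 (46.1), Agrn (45.9), Lamb1 (39.4), Lama4 (38.0), Lama5 (20.4), Nid2 (20.2) and Lama2 (7.87), and the libraries of all neighbours overlapped except those of Nid1 and Lamc1 and those of Lama4 and Lama5. The place of Nid2 differed most between the orders, the third in RBPj KO SECs and the ninth in control SECs.

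The laminin chain genes with the widest spread had their extremes in the same libraries as the stellate cell and fibroblast markers. On the log2 scale, relative to the mean of the 6 libraries, Lama2 stood at -2.24, 0.52 and -0.06 in RBPj KO SECs and -0.13, 0.06 and 1.85 in control SECs. The mean over the 17 markers stood at -2.03, 0.05 and -0.27 in RBPj KO SECs and 0.06, 0.58 and 1.60 in control SECs. Lamb1 and Lama1 had their lowest and highest values in the same libraries as the markers, RBPj KO replicate 1 and control replicate 3.

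Of the 17 markers, 17 were detected, and 17 had negative log2 fold changes with a median of -1.45. In RBPj KO SECs 10 lay lower without overlap, against 11.7% of all tested genes. None passed the threshold by edgeR's quasi-likelihood test, and 7 had an unadjusted p under 0.05, against 8.13% of all tested genes that were lower. By DESeq2 4 passed, against 5.72% of all tested genes, and by limma-voom 0, against 3.17%. Reln, a defining marker of stellate cells, had 58.4, 461 and 282 normalized CPM in RBPj KO SECs and 638, 635 and 1763 normalized CPM in control SECs. Markers of macrophages had overlapping sums, at 789 to 3111 normalized CPM in RBPj KO SECs and 2576 to 4924 normalized CPM in control SECs. Of these 12 markers, 10 had negative log2 fold changes. Only 2 lay lower in RBPj KO SECs without overlap, against 11.7% of all tested genes. The part of these markers in the differences of Lama1, Lama2, Lamb1 and Lamc1 was not tested, and without both RBPj KO replicate 1 and control replicate 3 the log2 fold change of Lamc1 was -0.20 and that of Lama4 -0.34.

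**Figure D4:**
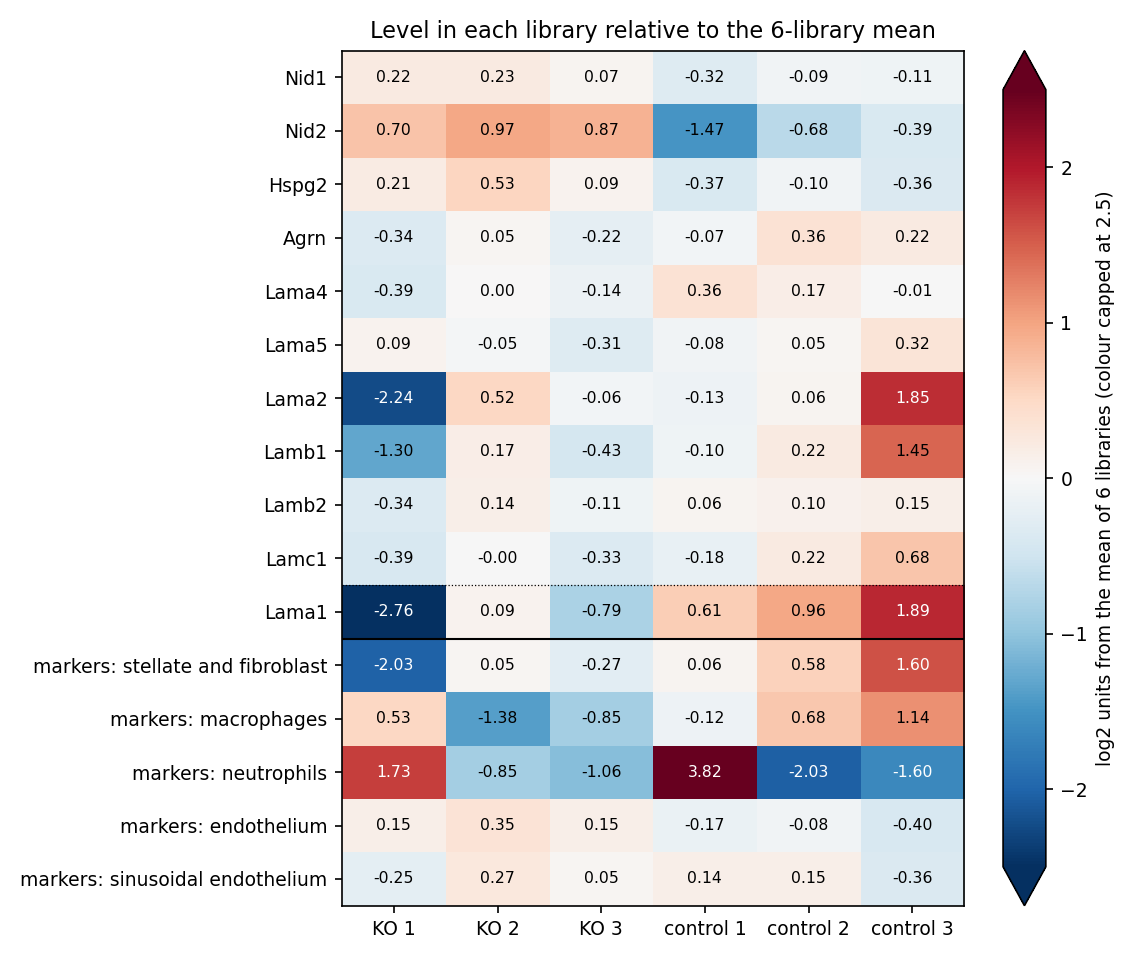
Heat map of log2 levels in each library (columns, the 3 RBPj KO libraries left of the 3 control libraries) relative to the mean of the 6 libraries, for the 10 genes, Lama1 and the mean over 5 marker lists (rows), with the value in each cell and colour from blue (lower) to red (higher). Nid2 is red in all 3 RBPj KO columns, and Lama2, Lamb1, Lama1 and the stellate cell and fibroblast markers share their lowest value in RBPj KO replicate 1 and their highest in control replicate 3.

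Over the 6 libraries, the pattern of each of the 10 genes was compared with those of the others (Pearson's r of log2 CPM, n = 6 libraries that share the difference between groups, given as a description). Nid2 was most like Nid1 (r = 0.95) and Hspg2 most like Nid1 (r = 0.92). Lama2 and Lamb1 were most like each other (r = 0.96), Lamc1 most like Lamb1 (r = 0.94), Agrn most like Lamc1 (r = 0.85) and Lama4 most like Lamb2 (r = 0.75). Lamb2 itself was most like Lama2 (r = 0.89), and Lama5 most like Lamc1 (r = 0.74). The nidogens and Lama4 were the least alike, with r = -0.81 for Nid1. Among all tested genes with an average log2 CPM of at least 4, those most like Nid2 were Eef1b2, Ccdc22, Tnk2, Cxx1c and Ptk7 (r of 0.99 each), and Ptk7, an inactive receptor tyrosine kinase, had the largest log2 fold change of these, 1.22 (edgeR's quasi-likelihood test, adjusted p = 0.0950).

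The other basement membrane genes were taken from 5 lists of 64 genes, of which 61 were tested. By edgeR's quasi-likelihood test 0 of the 61 rose and 2 fell in RBPj KO SECs, Ntn4 and Hpse, against 0.195% of all tested genes called. At an unadjusted p under 0.05, 7 were higher, against 9.39% of all tested genes, and 12 lower, against 8.13%. The lists were chosen with earlier results of these data known, so these counts are only a description. The median log2 fold change over the 61 was -0.25. The 2 calls did not hold in all subsets of libraries: without RBPj KO replicate 1 only Hpse passed, and without each of the other 5 libraries neither did. The differences themselves kept their size, with log2 fold changes of -2.55 to -2.21 for Ntn4 and -1.36 to -1.13 for Hpse and an unadjusted edgeR p under 0.05 in 6 of 6 fits for each.

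Ntn4 encodes netrin-4, a secreted protein that binds laminin gamma chains and disrupts laminin networks. It had 39.2, 55.3 and 54.8 normalized CPM in RBPj KO SECs and 353, 229 and 230 normalized CPM in control SECs. The groups were far apart, and Ntn4 fell by 2.44 ± 0.24 (SE) on the log2 scale (edgeR's quasi-likelihood test, adjusted p = 0.0383, and 0.0517 to 0.185 with each library left out). It was the 1 of 17 tested genes of other basement membrane proteins and assembly factors to pass, and the median of that list was -0.49.

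Hpse encodes heparanase, which cleaves the heparan sulfate chains of perlecan and agrin. It had 62.5, 84.8 and 76.0 normalized CPM in RBPj KO SECs and 181, 165 and 187 normalized CPM in control SECs. All RBPj KO libraries lay below all control libraries, and Hpse fell by 1.25 ± 0.14 (SE) on the log2 scale (edgeR's quasi-likelihood test, adjusted p = 0.0470, and 0.0497 to 0.196 with each library left out). It was the 1 of 17 tested proteases and inhibitors to pass, and the median of that list was -0.16.

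Of 14 tested receptors, 0 passed by edgeR's quasi-likelihood test, against 0.195% of all tested genes. At an unadjusted edgeR p under 0.05, 2 were higher, against 9.39% of all tested genes, and 3 lower, against 8.13%. By DESeq2 3 passed, against 5.72% of all tested genes, and by limma-voom 1, against 3.17%. Lrp4, a receptor for agrin at the neuromuscular junction, had 7.27, 7.37 and 8.29 normalized CPM in RBPj KO SECs and 23.6, 17.8 and 28.9 normalized CPM in control SECs. The groups did not overlap (log2 fold change -1.61 ± 0.20, SE, edgeR's quasi-likelihood test, adjusted p = 0.0508), and Lrp4 passed with another normalization and with other filters on low counts. It did not pass by edgeR with any library left out (adjusted p from 0.0790 to 0.212) or with the replicate number as a block. Itga6, the alpha 6 subunit of laminin-binding integrins, had 178, 162 and 163 normalized CPM in RBPj KO SECs and 91.9, 123 and 79.0 normalized CPM in control SECs. It too did not overlap, in the opposite direction (log2 fold change 0.77 ± 0.18, SE, edgeR's quasi-likelihood test, adjusted p = 0.127).

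For each of the 8 genes of basement membrane collagens, which include the chains of collagen IV, the groups overlapped. None passed by edgeR's quasi-likelihood test, DESeq2 or limma-voom, against 0.195%, 5.72% and 3.17% of all tested genes. At an unadjusted edgeR p under 0.05, 0 were higher, against 9.39% of all tested genes, and 0 lower, against 8.13%. For a list of 8 genes these counts are near the shares over all tested genes and are only a description. The median log2 fold change was 0.16. Col4a5 (-0.65 ± 0.31, SE) and Col15a1 (0.60 ± 0.58, SE) had the smallest p of the list.

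**Figure D5:**
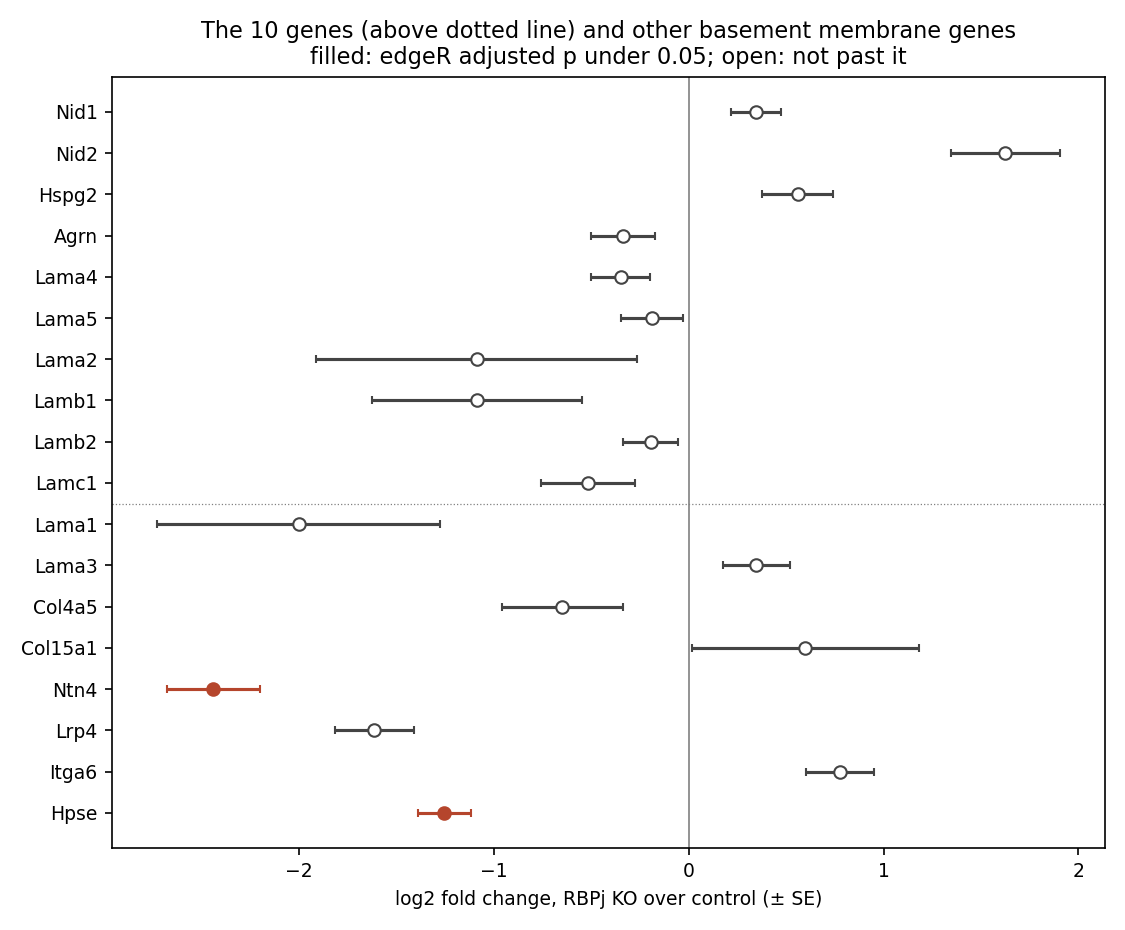
Log2 fold change of RBPj KO over control SECs (x axis, point ± SE) for the 10 genes above the dotted line and for the named genes of the other basement membrane lists below it, with filled points for an edgeR adjusted p under 0.05. Nid2, Hspg2 and Nid1 lie right of 0, the 6 laminin chains of the 10 and Agrn lie left of it, and only Ntn4 (-2.44) and Hpse (-1.25) are filled.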

How the data were processed

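RNA sequencing was performed by the submitters on an Illumina HiSeq. Their processing notes name TopHat2 2.0.13, bcl2fastq and mm10, while the counting program, the annotation and the handling of strand are not stated in the sources at hand. Raw counts for each gene and library were deposited, with RPKM values that the authors computed from them, which equalled the count over gene length and library total within 0.1%. Tests used the counts, and RPKM gave only ratios, shares, orders of levels and the sums of laminin chain genes. These sums are scaled by the library total and not by TMM library sizes.

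The 15404 genes kept by filterByExpr were fitted in R 4.3.3 with edgeR 4.0.16 (TMM normalization, robust glmQLFit on group alone, two-sided glmQLFTest, Benjamini-Hochberg adjustment over all tested genes, threshold 0.05). The fit was also run on counts simulated with the spread that it had estimated. That simulation held no shifts of single libraries such as those in the cell type markers, so it does not cover them. Normalized CPM are counts scaled by TMM library sizes. The SE of an edgeR log2 fold change is its absolute value over the square root of the quasi-likelihood F statistic. A limit of 3 counts covers counting error alone, as reads were not marked as single molecules. Alternatives were RLE size factors, DESeq2 1.42.0, limma-voom (limma 3.58.1) with quality weights, no filter, a stricter filter (10 counts or more in 3 libraries or more, with a mean log2 CPM of 1 or more), the replicate number as a block, and each library left out. Leaving out 2 libraries together, or the 18S ribosomal RNA row with its 0.864% to 6.62% of counts, was added after the data were seen.

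The 10 genes, the other lists and the markers were chosen with earlier results of these data known. All 10 genes and Rbpj are named. From each other basement membrane list, genes past the threshold are named, or otherwise the 2 with the smallest p. Reln and the marker sums were named after their values were seen. Some results are not reported here. Groups and replicate numbers came from the sample titles, and the strain field was not used.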

Additional observations from a re-analysis of the deposited data

How the results depend on the processing

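For the 10 genes and Rbpj, 154 values were recomputed under 14 settings. Of these, 151 kept their direction and their side of the threshold, 2 passed it (Nid2 by DESeq2 and by limma-voom), and the log2 fold change of Lama2 changed sign to 0.29 without both RBPj KO replicate 1 and control replicate 3, against -1.66 to -0.17 with 1 library left out. The number of the 10 genes past the threshold was 0 by edgeR under every setting, and 1 by DESeq2 and 1 by limma-voom. Leaving out 1 library gave 3 to 8 of the 10 genes with groups that did not overlap. The 8 came without RBPj KO replicate 2, with 3 higher and 5 lower. In that setting 15.7% of all tested genes lay higher and 15.6% lower without overlap. Of the 61 other basement membrane genes, 2 passed by edgeR, against 4 with no filter on low counts, 14 by DESeq2, 6 by limma-voom, 0 to 1 with 1 library left out, and 0 without both libraries named above. Over all genes, 30 passed by edgeR, against 55 with RLE size factors, 176 with no filter, 73 with the stricter filter, 872 by DESeq2, 489 by limma-voom, 0 to 41 with 1 library left out (41 without RBPj KO replicate 1 and 0 without each of the others), and 1 without both libraries; the cause was not tested. With the replicate number as a block, 3 genes passed in all, 0 of the 10 and 0 of the other basement membrane genes. The numbers were not taken to pair the libraries, as the labels do not say that they mark a shared animal, litter or day. Libraries of the same number deviated together with r = 0.19, 0.03 and 0.42, and those of unlike numbers with r from -0.46 to 0.20. RBPj KO replicates 1 and 3 correlated best with the control library of their own number. RBPj KO replicate 2 correlated best with control replicate 1 (r = 0.09). The differences in Lama2, Lamb1 and Lamc1 rest on few libraries.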
